A study of Mus musculus with 5 samples.

Results

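Naïve CD8+ T cells that kept the transcription factors Tcf1 and Lef1 had 576 strong DNase I hypersensitive sites inside gene bodies that were absent from the list of cells lacking both factors. These sites are peaks of the WT list on chromosomes 1 to 19 that overlap no peak of the dKO list, have their summit inside an annotated gene and over 1000 bp from every annotated transcript start, and reach at least the median pileup of the WT list, 54 fragments over the summit. They were therefore chosen by measured values, the presence or absence of a called peak and its height, and those values are given below only as a description. The WT list held 31116 peaks and the dKO list 25525. Of all WT peaks, 9377 overlapped no dKO peak, which is 30.1%, and of the 3600 strong genic distal WT peaks on the autosomes the 576 sites are 16%. Since the choice itself rests on that contrast, nothing is read from either share.

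The WT mice were hCD2-Cre+ Rosa26-GFP with Tcf7+/+ and Lef1+/+ alleles, and the dKO mice were hCD2-Cre+ Rosa26-GFP with Tcf7 fl/fl and Lef1 fl/fl alleles, all on the C57BL/6 background, of both sexes and 6 to 12 weeks old. Both groups thus carry the Cre transgene and the reporter. The hCD2-Cre transgene is most active in mature T cells, it excised its targets in 80 to 95% of cells, and GFP marked the cells in which it had acted. Splenic GFP+ TCRβ+ CD8+ cells of naïve phenotype, CD62L+ with low to medium CD44, were sorted, 3 replicates for WT and 2 for dKO. From each replicate 300000 cells were digested with DNase I. The deposited lists hold 1 pooled set of values per genotype, so they give no spread between replicates, and no test between genotypes was possible from them. The study itself compared read counts of the replicates with edgeR, at sites that passed its stricter peak criteria. It called far fewer sites more open in WT than the 9377 WT peaks that overlapped no dKO peak here. Absence of a called dKO peak is therefore not a tested loss of accessibility.

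Tcf1, the product of Tcf7, and Lef1 are high mobility group proteins that bind a short A and T rich core in the minor groove of DNA and bend it. They act downstream of Wnt signalling with β-catenin, recruit Groucho/TLE corepressors in its absence, and are needed for the development and the identity of T cells. DNase I cuts DNA that is not covered by nucleosomes, so a peak of cuts marks an open regulatory element, and many elements of T cell genes lie in introns far from the promoter. CTCF, which comes up repeatedly here, is a zinc finger protein that anchors chromatin loops and leaves a small, sharply bounded open site.

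The sites that carry the main sequence result are shown first. The following 10 are the sites with the highest pileup among those in an intron of a protein-coding gene with a Tcf/Lef core, ATCAAAG or its reverse complement CTTTGAT, within 50 bp of the summit. Some sites were not eligible for display, as given with the methods, and were passed over. Each run is the plus strand of mm9 from 60 bp before to 60 bp after the summit, with the core in capitals. The stretches are chr1:140059317-140059437 in intron 2 of Ptprc (the phosphatase CD45), chr12:29519307-29519427 in intron 4 of Tssc1, chr11:5311737-5311857 in intron 1 of Znrf3 (a ubiquitin ligase that removes Wnt receptors from the cell surface), chr8:36008238-36008358 in intron 1 of Tnks (tankyrase, which marks axin for degradation) and chr14:123301466-123301586 in intron 1 of A2ld1. The other 5 are chr12:74799470-74799590 in intron 6 of Prkch (protein kinase C eta), chr4:132854603-132854723 in intron 12 of Wdtc1, chr13:46875312-46875432 in intron 25 of Kif13a (a kinesin motor), chr1:155167404-155167524 in intron 1 of Lamc1 (the laminin gamma 1 chain) and chr11:7045314-7045434 in intron 10 of Adcy1 (an adenylate cyclase).
Ptprc: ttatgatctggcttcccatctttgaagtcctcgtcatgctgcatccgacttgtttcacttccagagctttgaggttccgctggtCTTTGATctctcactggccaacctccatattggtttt
Tssc1: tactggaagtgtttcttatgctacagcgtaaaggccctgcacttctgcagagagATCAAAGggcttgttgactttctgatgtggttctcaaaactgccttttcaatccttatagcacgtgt
Znrf3: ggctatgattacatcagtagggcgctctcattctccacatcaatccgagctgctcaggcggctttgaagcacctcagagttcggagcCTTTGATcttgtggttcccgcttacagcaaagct
Tnks: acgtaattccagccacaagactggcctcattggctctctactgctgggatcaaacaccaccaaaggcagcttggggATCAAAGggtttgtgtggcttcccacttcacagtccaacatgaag
A2ld1: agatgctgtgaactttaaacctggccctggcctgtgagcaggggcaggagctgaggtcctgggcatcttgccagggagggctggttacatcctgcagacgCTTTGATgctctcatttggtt
Prkch: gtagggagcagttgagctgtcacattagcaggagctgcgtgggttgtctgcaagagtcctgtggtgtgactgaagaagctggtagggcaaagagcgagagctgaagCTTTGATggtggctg
Wdtc1: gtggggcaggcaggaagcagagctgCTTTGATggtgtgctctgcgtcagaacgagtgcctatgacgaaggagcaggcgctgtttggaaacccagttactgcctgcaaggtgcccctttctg
Kif13a: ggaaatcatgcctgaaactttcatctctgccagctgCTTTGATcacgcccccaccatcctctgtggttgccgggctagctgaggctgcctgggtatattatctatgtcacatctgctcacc
Lamc1: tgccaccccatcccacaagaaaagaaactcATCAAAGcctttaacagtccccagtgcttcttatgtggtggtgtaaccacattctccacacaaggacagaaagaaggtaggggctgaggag
Adcy1: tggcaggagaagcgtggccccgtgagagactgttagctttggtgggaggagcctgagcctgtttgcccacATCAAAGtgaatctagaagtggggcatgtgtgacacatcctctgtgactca

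Pileup at these 10 sites ran from 75 fragments at Adcy1 to 99 at Ptprc, and fold enrichment over the local background from 8.68 at Tssc1 to 14 at Kif13a. The cores lay on the plus strand at Tssc1, Tnks, Lamc1 and Adcy1 and on the minus strand at the other 6. The middle of the core was 3 bp from the summit at Tssc1, 13 bp at Adcy1 and 49 bp at Prkch, the closest, the next and the farthest of the 10. The nearest dKO peak lay 874 bp away at Prkch and 449715 bp away at Adcy1, the ends of the range.

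For contrast, the following runs hold no Tcf/Lef core within 100 bp of the summit. The first is the member with the highest pileup of all, in intron 9 of Sfi1 at chr11:3062121-3062241, and the second is the highest one with a fold enrichment of at least 4, in intron 14 of Rbm33 at chr5:28729409-28729529. The last 3 are the sites of highest pileup among narrow ones, 120 bp wide or less, with a CTCF motif, which is in capitals. They lie in intron 1 of Trpm8 at chr1:90186644-90186764, in intron 4 of Angpt4 at chr2:151756271-151756391 and in intron 5 of Scfd2 at chr5:74673905-74674025, and all but the Sfi1 site were chosen for display after their values were seen.
Sfi1: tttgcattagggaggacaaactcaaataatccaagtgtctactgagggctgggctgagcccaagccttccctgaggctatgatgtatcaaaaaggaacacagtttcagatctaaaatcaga
Rbm33: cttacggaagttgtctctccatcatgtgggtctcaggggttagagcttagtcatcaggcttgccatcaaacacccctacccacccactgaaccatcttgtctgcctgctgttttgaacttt
Trpm8: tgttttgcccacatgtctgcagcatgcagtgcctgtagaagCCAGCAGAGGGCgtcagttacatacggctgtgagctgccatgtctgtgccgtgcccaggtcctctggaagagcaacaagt
Angpt4: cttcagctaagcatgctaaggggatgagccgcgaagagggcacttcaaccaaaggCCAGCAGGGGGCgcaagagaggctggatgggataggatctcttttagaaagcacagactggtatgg
Scfd2: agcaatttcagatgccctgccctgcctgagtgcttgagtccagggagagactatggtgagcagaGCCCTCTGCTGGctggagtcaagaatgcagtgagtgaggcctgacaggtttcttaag

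Pileup of the 576 sites had a median of 64 fragments and ran from 54 to 245, with lower and upper quartiles of 58 and 75. Fold enrichment had a median of 10.1 and ran from 1.54 to 18.4, and the median −log10 p against the local background was 44. The 3024 strong genic distal WT peaks that do overlap a dKO peak had a median pileup of 76 and a median fold enrichment of 10.7. The 44 sites just inside the pileup threshold, at 54 fragments, had a median fold enrichment of 8.95, and the 45 just outside it, at 53, had 9.32. On the side of the distance rule, the last sites inside were 2 in Sfi1 at 1004 and 1007 bp from a start and 1 in Entpd5 (a nucleotidase of the endoplasmic reticulum) at 1018 bp. The nearest outside were sites in Tk1 (thymidine kinase) and Dmpk (myotonic dystrophy kinase), each at 991 bp, and 1 in Nfe2l2 (the oxidative stress factor Nrf2) at 971 bp.

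The WT pool was deeper than the dKO pool. MACS2 kept 83923734 fragments for WT and 62242963 for dKO, a ratio of 1.35, and the threshold of 54 fragments scaled to the dKO depth would be 40. The dKO list reached down to a pileup of 13, and 4171 of its 7092 genic distal autosomal peaks, 58.8%, had a pileup below the scaled threshold. Such low peaks were called in the dKO pool. Whether a weaker signal lay at the 576 places themselves was not tested, because no coverage outside peaks was used here. Whether the lower depth accounts for the peaks missing there was not tested either. The nearest dKO peak was a median of 7919 bp away. It lay within 500 bp at 33 sites, or 5.73%, and within 5000 bp at 247, or 42.9%.

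**Figure D1:**
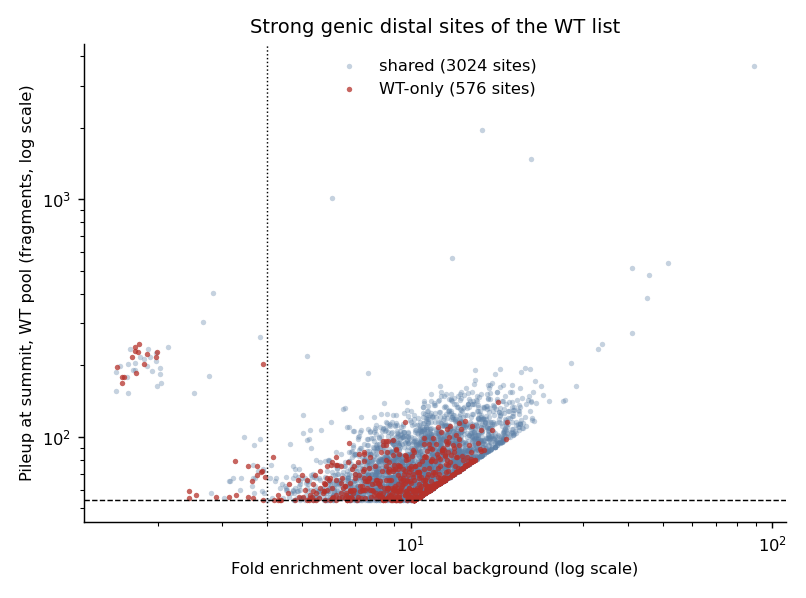
Pileup at the summit (vertical, fragments, log scale) against fold enrichment over the local background (horizontal, log scale) for the 576 WT-only sites (red) and the 3024 shared sites (blue) of the WT list. The dashed line marks the pileup threshold of 54 and the dotted line a fold enrichment of 4, and the red points with pileups of 168 or more and folds under 2 are the Sfi1 sites.

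The top of the pileup ranking was a single locus. All but 1 of the 10 sites with the highest pileup lay in Sfi1 on chromosome 11, which encodes a centrin-binding spindle protein, and the other was in the neighbouring pseudogene transcript Pisd-ps1. The 14 Sfi1 sites had pileups from 168 to 245 and fold enrichments of only 1.54 to 1.98, since the local background there was 106 to 138 fragments against a median of 6.66 over all 576 sites. Within the bounds of Sfi1 the WT list held 53 peaks and the dKO list 38, every one with a fold enrichment under 4, and 19 and 7 of them, respectively, overlapped none of the other list. At the site nearest to a dKO peak, 72 bp away in Sfi1, the WT pileup was 227 and that of the dKO peak 183.

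Altogether 32 of the 576 sites had a fold enrichment under 4. Besides Sfi1 and Pisd-ps1 they included 6 sites in Gm15319 and 3 in the overlapping lincRNA Gm17279 on chromosome 8, and 4 in the lincRNA Gm16889 on chromosome 4. The other 4 were single sites in St8sia4 (a polysialic acid transferase), Hs3st3b1 (a heparan sulfate transferase), Fam169b and Klf13 (a zinc finger transcription factor). With WT peaks of fold enrichment under 4 left out, a choice made after the data were seen, 544 sites remained.

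The sites with the highest pileup apart from these began with Rbm33, which encodes an RNA-binding protein. Its site at chr5:28729267-28729681 in intron 14 had a pileup of 140 and a fold enrichment of 17.5, and the nearest dKO peak was 73063 bp away. Next came sites in Osbpl8 (an oxysterol-binding lipid transfer protein) with a pileup of 117, Usp12 (a deubiquitinase) with 116, Fndc7 (a fibronectin domain protein) with 115 and Tmem189 (an enzyme of plasmalogen synthesis) with 114. Zfp800 (a zinc finger protein) and Hsdl1 (a dehydrogenase-like protein) had 111 each and Znrf1 (a ubiquitin ligase) 110. Dtx1, a ubiquitin ligase of the Notch pathway, and Samhd1, a dNTP hydrolase, followed with 108 each, and of these 10 only the Samhd1 site, in a coding exon, had a Tcf/Lef core. Local backgrounds at these places, from 6.24 fragments at Fndc7 to 12.1 at Usp12, were far below those in Sfi1.

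The label of the cells was checked at the promoters of marker genes, taking a summit within 1000 bp of a transcript start as a promoter peak. Of 10 T cell genes, 9 had such a peak in WT and 8 in dKO, and with the 20000 peaks of highest −log10 p in each list 4 in place of 8 had one in both. Cd8a had a pileup of 41 in WT and 31 in dKO, Cd3g 86 and 54, and Ccr7, the lymph node homing receptor, 115 and 59. Tcf7 had no peak within 1000 bp of its starts in either list, and Cd3d had one, of 54, only in WT. None of the 3 helper lineage genes, 6 B cell genes and 4 NK cell genes had one in either list. Among 6 myeloid genes, Itgam did in WT alone, with a pileup of 36, and Spi1 in dKO alone, with 24, and among 4 non-haematopoietic genes only Col1a1 did, with pileups of 30 and 20.

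The Tcf/Lef core lay within 100 bp of the summit at 65 of the 576 sites, or 11.3% (95% Wilson interval 8.95 to 14.1). At the 3024 shared sites the share was 4.50% (3.81 to 5.30), and the difference was 6.79 percentage points (Newcombe interval 4.32 to 9.71). All intervals on shares cover counting error only, and sites are not replicates of a genotype. Over the 30399 autosomal WT peaks of any kind the share was 3.91%. The same letters in reverse order, GAAACTA, which serve as a control of equal composition, lay at 2.43% of WT-only and 2.58% of shared sites. The core was found at 7.80% (5.74 to 10.5) of the 487 strong WT-only intergenic sites and at 8.46% (7.54 to 9.49) of the 3132 weaker WT-only genic sites. Of the 168 strong genic distal sites found only in dKO, 3, or 1.79% (0.609 to 5.12), had it. For that set, here and below, strong means at least the median pileup of the dKO list, 42 fragments.

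The core also came first when no motif was named. Over all 8191 words of 7 bases seen in the windows, each counted with its reverse complement, ATCAAAG had the largest excess in WT-only over shared sites. CTTCAAA followed with 11.6% against 5.03%, and then TTCAAAG, which differs from the core at its first base, with 11.3% against 5.52%. The words ranked 4 to 6, TCAAAGG, then CATCAAA, then GATCAAA, each share 6 letters with the core or with TTCAAAG in a shifted frame. Under some alternatives the core was second or sixth.

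Either form, ATCAAAG or TTCAAAG, lay at 123 of the 576 sites, or 21.4% (18.2 to 24.9), against 9.76% (8.75 to 10.9) of shared sites, a difference of 11.6 points (8.26 to 15.3). Joining these forms was a choice made after the word ranking. The share was 19.1% at the intergenic WT-only sites, 17.2% at the weaker WT-only genic sites, 6.55% at the dKO-only genic sites and 8.84% over all autosomal WT peaks. At most of the WT-only sites neither form was present in the window, which says nothing of whether either factor was bound there. The study mapped Tcf1 binding itself, by chromatin immunoprecipitation in naïve CD8+ T cells. It found Tcf1 at most sites it called more open in WT, and classed a minority of these bound sites as having a strong Tcf/Lef motif. Those binding data were not compared with the WT-only sites here.

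At the other end of the same ranking stood words of the Ets family, and the Runx motif was also less frequent. ACAGGAA was the lowest, with 10.6% of WT-only and 21.0% of shared sites, and CAGGAAG was next, with 15.6% and 24.8%. The Ets motif AGGAAGT lay at 11.1% (8.80 to 13.9) of WT-only and 19.3% (17.9 to 20.7) of shared sites, a difference of -8.17 points (-10.9 to -5.03). The Runx motif TGTGGTT lay at 9.72% (7.56 to 12.4) and 15% (13.8 to 16.4), a difference of -5.32 points (-7.85 to -2.36). With a pileup of at least 83 the intervals of both differences, -12.1 to 2.27 for Ets and -12.2 to 2.19 for Runx, included 0. Over all autosomal WT peaks the shares were 14.4% for Ets and 9.75% for Runx. Shares below those of the shared sites were not particular to these sites. The Ets share was 8.83% at the strong WT-only intergenic sites, 8.33% at the dKO-only genic sites and 17.9% at the weaker WT-only genic sites, and the Runx share 11.3%, 8.33% and 13.3%. Factors of both families bind T cell enhancers.

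Of the other motifs searched, on both strands, 10 had intervals of the difference that include 0. They were the Sox-type core AACAAAG, the AP-1 or Bach motif TGANTCA, the E-protein box CAGCTG, the E-protein or Zeb box CAGGTG, the Forkhead motif TGTTTAC, the NFAT motif TGGAAAA, the GATA motif AGATAAG, the STAT motif TTCNNNGAA, the Klf motif GGGTGTGG and the nuclear receptor half-site AAGGTCA. The commonest of them, CAGGTG, lay at 21.7% of WT-only sites, 19.4% of shared sites and 16.3% of all autosomal WT peaks.

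**Figure D2:**
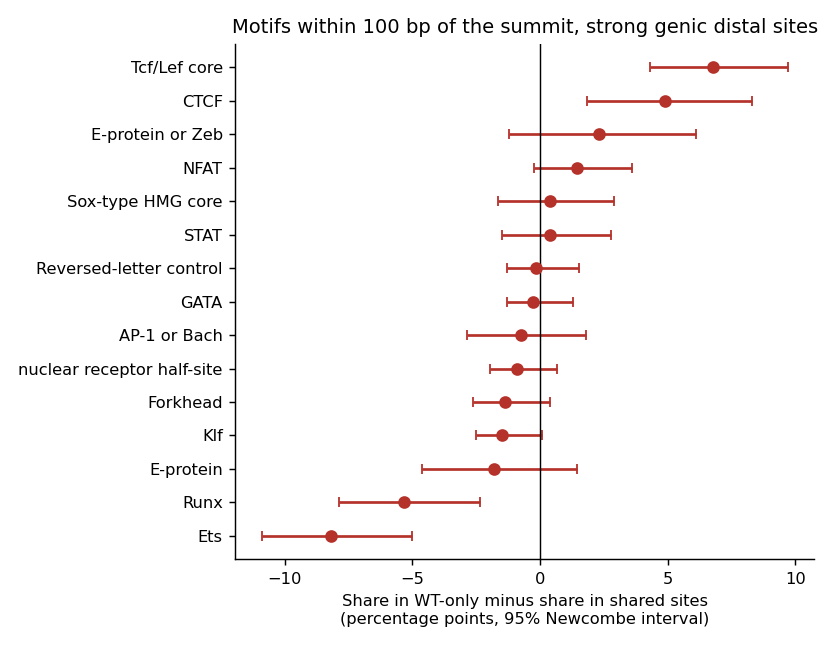
Share of WT-only sites minus share of shared sites (horizontal, percentage points) with a motif within 100 bp of the summit, for the 15 motifs searched. Points are differences and bars 95% Newcombe intervals, and the Tcf/Lef core and CTCF stand to the right of 0 and Runx and Ets to the left.

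CTCF was the other motif more frequent at the WT-only sites under the rule as given, though not under every alternative. It lay at 95 of them, or 16.5% (13.7 to 19.7), against 11.6% (10.5 to 12.8) of shared sites, a difference of 4.89 points (1.84 to 8.32), and at 6.56% of all autosomal WT peaks. The interval of the difference included 0 with q below 1e-10 in both lists, 2.11 points (-0.619 to 5.18), and with the 20000 peaks of highest −log10 p, 2.01 points (-0.763 to 5.12). With a pileup of at least 83 the difference turned to -4.40 points (-8.18 to 2.87), with a share of 5.81%. At strong WT-only intergenic sites the share was 20.7% and at the dKO-only genic sites 22.0%. Of the WT-only sites 3, or 0.521%, had both motifs, against 0.430% of shared sites. The core alone was present at 62, CTCF alone at 92 and neither at 419.

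The sets also differed in form. WT-only sites with the core had a median width of 225 bp, and those with CTCF a median of 121 bp, and shared sites showed the same contrast, with 282.5 and 151 bp. Over all 576 sites the median was 155 bp, against 225 bp for the shared sites. A width of 120 bp or less was seen at 184 sites, or 31.9% (28.3 to 35.9), and at 10.9% (9.88 to 12.1) of shared sites. Among the dKO-only genic sites this share was 47.0% (39.6 to 54.6), so that narrow peaks were more frequent in either set found in a single list. Width comes from the same peak calls as the choice of sites and is given as a description.

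Within each width class the interval of the CTCF difference included 0, while the Tcf/Lef core differed in every class over 120 bp. Among narrow sites CTCF lay at 25% (19.3 to 31.7) of WT-only and 28.4% (23.8 to 33.5) of shared ones, and at 31.6% (22.4 to 42.5) of those found only in dKO. Among the wider ones it lay at 12.5% and 9.54%, with an interval of the difference from -0.183 to 6.75 points. The core lay at 2.72% (1.17 to 6.2) of narrow WT-only sites and 1.81% (0.833 to 3.90) of narrow shared sites, which cannot be told apart. Among the wider ones it lay at 15.3% (12.1 to 19.2) of 392 WT-only sites and 4.83% (4.08 to 5.70) of 2693 shared sites, a difference of 10.5 points (7.14 to 14.4). In the 2 classes over 220 bp it reached 18.4% and 19% of WT-only sites, against 4.65% and 7.07% of shared sites.

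**Figure D3:**
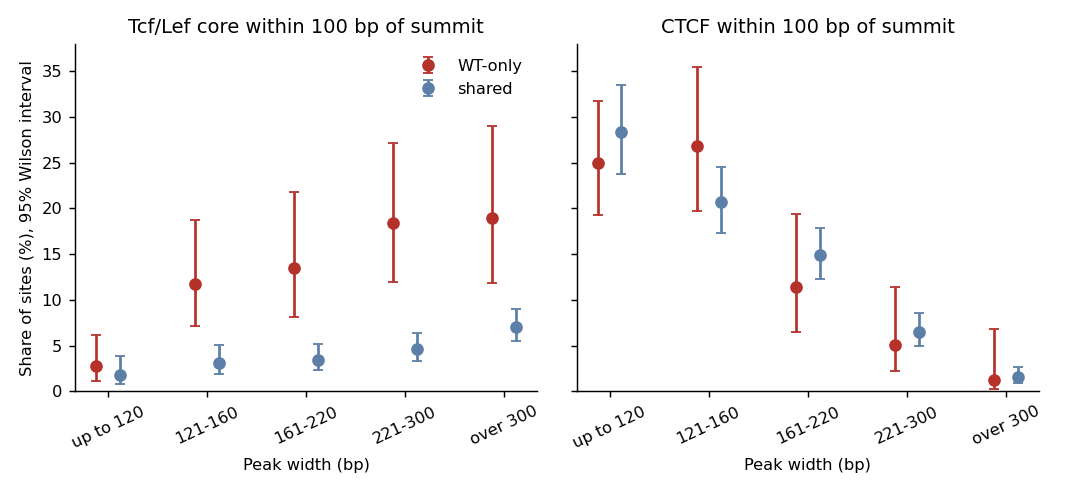
Share of sites (vertical, percent) with a Tcf/Lef core (left) or a CTCF motif (right) within 100 bp of the summit, by peak width in bp (horizontal), for WT-only (red) and shared (blue) sites. Bars are 95% Wilson intervals, and the core share of WT-only sites lies above that of shared sites in each class over 120 bp, while the CTCF shares overlap in every class.

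The lower shares of Ets and Runx were seen among the wider sites, where the Ets motif lay at 10.7% of WT-only and 20.6% of shared sites, a difference of -9.89 points (-13.0 to -6.14), and among narrow ones at 12% and 8.46% (-1.76 to 9.54). The Runx motif lay at 11.7% and 16.2% of wider sites, a difference of -4.42 points (-7.58 to -0.611), and at 5.43% and 6.04% of narrow ones (-4.57 to 4.16). Whether the differences themselves differ between the width classes was not tested.

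Base composition was described without a test. The GC content within 100 bp of the summit had a median of 49.3% at WT-only and 49.8% at shared sites, and 28.0% and 34.0% of sites fell in the highest of the 3 GC classes used here. With a GC content up to 47.3% the core lay at 13.8% of WT-only and 5.89% of shared sites, from there to 52.2% at 13.2% and 4.50%, and above that at 5.59% and 3.11%, where the interval of the difference, -0.426 to 7.25 points, includes 0. The CTCF share was 26.1% against 10.8% in the class highest in GC, 16.4% against 11.3% in the middle and 8.72% against 12.7% in the lowest, where the interval of the difference, -7.83 to 1.21 points, includes 0. By pileup, the core share of WT-only sites was 10.2% up to 65 fragments, 12.5% up to 84 and 13% above, against 4.61%, 4% and 4.86% of shared sites. The CTCF share was 18.7%, 16.8% and 6.49%, against 11.8%, 13% and 10.2%, and in the class of highest pileup the difference was -3.67 points (-7.82 to 4.32).

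The 65 sites with a core held 67 cores. Their distance from the summit had a median of 41 bp, against 51 bp for the 139 cores of the shared sites. Within 20 bp of the summit there were 2.95 cores per 100 WT-only sites and 0.628 per 100 shared sites, and between 60 and 80 bp 1.56 and 1.09. Of the 67 cores, 27 were on the same strand as the host gene and 40 on the opposite strand, and of those at shared sites 54 and 85. Among the flanking bases, an A stood 3 bases before the core in 52.2% of WT-only and 28.8% of shared cores, a position picked after all of them were seen and not tested.

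**Figure D4:**
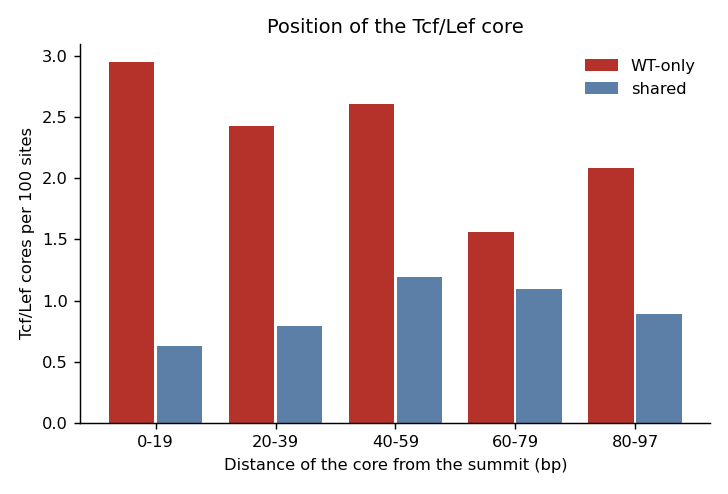
Tcf/Lef cores per 100 sites (vertical) by distance of the middle of the core from the summit in bp (horizontal), for WT-only (red) and shared (blue) sites. The densities differ most within 20 bp of the summit, 2.95 against 0.628, and least between 60 and 80 bp.

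Only 2 sites held more than 1 core. The narrower of them, in intron 19 of Ipo4 (an importin), had a pileup of 67, was 99 bp wide and was 1 of the 3 sites that carried a CTCF motif as well.

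Most sites were intronic, as were most shared sites. Of the 576 summits 526, or 91.3%, lay in an intron of the host gene, against 91.9% of shared sites, 26 in a coding exon, 20 in an untranslated exon and 4 in an exon of a non-coding transcript. Intron 1 held 179, or 31.1% (27.4 to 35), against 34.6% (32.9 to 36.3) of shared sites. Introns 2 and 3 held 77 and 48, and later introns 222, or 38.5% (34.7 to 42.6), against 33.8% (32.1 to 35.5). The intron 1 share was 33.8% among WT-only sites with the core and 18.9% among those with CTCF, and likewise 38.2% and 19.1% among shared sites.

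The distance to the nearest annotated start had a median of 8454 bp, against 9106 bp for shared sites, and 40 sites were over 50000 bp away. Host genes were protein-coding at 545 sites and lincRNAs at 20. Summits of 41 sites also lay in the body of a second gene, and there the host was the protein-coding one whose start was nearest. No gene of the lists described below was passed over in this way.

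The 576 sites fell in 509 genes, 472 of which held a single one. Besides Sfi1 with 14 and the 3 loci of low fold enrichment named above, the genes with the most were Ubac2 (a ubiquitin-associated protein of the endoplasmic reticulum) with 5, Eif4e3 (a cap-binding translation factor) and Lrrfip1 (a nucleic acid sensor) with 4 each, and Tshz2 (a zinc finger protein), Dock9 (an exchange factor for Cdc42), Trio (a guanine nucleotide exchange factor) and Pip4k2a (a phosphoinositide kinase) with 3 each. The 4 sites of Lrrfip1 lay close together in intron 2, with pileups from 63 to 73, and 1 had a CTCF motif. In Tshz2 the 3 sites had pileups of 61, 82 and 92 in intron 1, and the gene had no strong shared site and no promoter peak in either list. Another WT-only site lay within 50000 bp of 102 sites, or 17.7%, and the median distance between neighbours was 554246 bp. In the larger set of shared sites these values were 53.1% and 41148 bp, with no adjustment for the number of sites.

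Accessible promoters were as frequent at the host genes of WT-only sites as at those of shared sites. Of the 509 genes 327 had a promoter peak in both lists, or 64.2% (60 to 68.3), against 64.4% (62.3 to 66.5) of the 2025 host genes of shared sites. A promoter peak in WT alone was seen at 35 genes, or 6.88%, in dKO alone at 10, and in neither list at 137, or 26.9%.

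Among 275 autosomal genes of 11 lists of T cell and other functions, 29 held a WT-only site, 32 sites in all, and 102 held a strong shared site, 204 in all. Of every 100 strong sites in these genes 13.6 were thus WT-only, beside 16% over all genes. Transcription factors of T cells held 6, in 4 of 43 genes, beside 67 strong shared sites, so that 8.22 of every 100 were WT-only. Lef1 itself had 2, in intron 3 at chr3:130863261-130863446 with a pileup of 94 and in intron 5 at chr3:130893683-130893894 with a pileup of 71 and a Tcf/Lef core. Lef1 and Tcf7 are the genes deleted in dKO cells, and whether these stretches of Lef1 lie in the deleted part was not tested. Bcl11b, which fixes the T cell fate, had 2 sites in intron 3 with pileups of 92 and 69. The Runt factor gene Runx1 had 1 of 78 in intron 2, and Bach2, a repressor that keeps T cells quiescent, 1 of 64 in intron 3.

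Genes of T cell receptor signalling held 8 sites, in 8 of 39 genes, beside 47 strong shared sites, or 14.5 of every 100. The strongest was that of Ptprc shown above, at chr1:140059220-140059664, with a pileup of 99 and the only core among them. Sla2, an adaptor that dampens receptor signals, had a site with a pileup of 79 and a CTCF motif in an untranslated exon. Plcg1 (phospholipase C gamma 1) had 1 of 76 in intron 2, and Cd247, the zeta chain of the receptor complex, 1 of 75 in intron 1 with a CTCF motif. The exchange factor genes Sos1 and Rasgrp1 and the ubiquitin ligase gene Cblb held others, with pileups of 75, 56 and 54.

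Cytokine receptor and STAT genes held 5, beside 27 strong shared sites, or 15.6 of every 100. Il12rb2, the signalling chain of the IL-12 receptor, had a site of 86 with a core in intron 8 at chr6:67267863-67268142. Smad7, an inhibitor of TGFβ signals, had 1 of 69, the accessory receptor Tgfbr3 1 of 66 and the kinase Jak1 1 of 66. Tgfbr2, the TGFβ receptor that binds the ligand, had 1 of 60 in intron 1. Coreceptor and costimulation genes held 6, beside 18 strong shared sites, or 25 of every 100, with pileups of 76 in the adhesion receptor Cd2, 72 in the costimulator Cd226, 60 in the TNF receptor Tnfrsf1b and 58 in the adhesion receptor Slamf1. The other 2 were in the costimulator Icos and in Nt5e, the ectonucleotidase CD73, with 56 each, and only that of Nt5e had a core.

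Among Wnt pathway genes and partners of Tcf/Lef proteins, the corepressor Tle4 had a site of 82 in intron 4 and the deacetylase Hdac7 1 of 55 in intron 1, neither with a core, beside 16 strong shared sites, or 11.1 of every 100. None of 25 cytotoxic and effector genes held a WT-only site, and 3 of them held 4 strong shared sites. Lists for other lineages had 4 in all, and among strong shared sites the B cell list had 0, the myeloid list 1, and the NK cell and non-haematopoietic lists 3 each. Flt3, a receptor of early progenitors and dendritic cells, had 2, of 89 and 54, the tyrosine kinase gene Sykb 1 of 61 and the cadherin gene Cdh1 1 of 65, and none of 11 NK cell genes had any.

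Several of these places are among regions that the study itself had singled out from the same cells, so the counts that follow are not independent evidence. The lists used hold only regions linked to genes, and their sizes differ from some counts in the text of the study. Over all 576 WT-only sites the core lay at 11.3% and the CTCF motif at 16.5%. The small motif counts below were not tested against these shares. Of its differential sites less open in dKO cells and linked to genes raised there, 20 overlapped WT-only sites, or 25% of 80, and 8 of those WT-only sites had a core and none a CTCF motif. Samhd1 had 2 of these sites, in exon 5 and intron 6, each with a core. Of its differential sites less open in dKO and linked to genes lowered there, 18 of 98, or 18.4%, overlapped 17 WT-only sites, 7 of them with a core and none with CTCF. These 17 included the intron 5 site of Lef1, an intron 5 site of 100 in Inpp4b (an inositol phosphatase) and an intron 1 site of 83 in Stk39 (a stress kinase). No comparison with shared sites, or with listed sites more open in dKO cells, is made for these differential sites, since the rule that WT-only sites overlap no dKO peak largely fixes those counts. Of the listed super enhancers, a subset linked to genes, the 49 stronger in WT held 26 WT-only sites, or 4.51%, against 2.71% of shared sites, and the 88 stronger in dKO 20, or 3.47%, against 5.32%. None of the 26 had a core and 1 had a CTCF motif, and of the 20 in those stronger in dKO 3 had a core and 7 a CTCF motif. The 49 listed chromatin interaction hubs specific to WT held 15 WT-only sites, or 2.60%, against 1.92% of shared sites. The 35 specific to dKO held 7, or 1.22%, against 0.992%. Of the 15 sites 4 had a core and none a CTCF motif, and of the 7 none had a core and 3 a CTCF motif.

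Host genes that changed in expression in the study were about as frequent among WT-only as among shared sites. Genes raised in dKO hosted 25 WT-only sites, or 4.34%, against 4.17% of shared sites, and genes lowered in dKO 19, or 3.30%, against 2.84%. The latter include Lef1, Cd226 and Inpp4b.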

How the data were processed

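DNase-seq libraries of sorted naïve CD8+ T cells were read as 2 deposited peak lists, WT (pool of 3 replicates) and dKO (pool of 2). The authors aligned paired reads with Bowtie2 2.2.5 to mm9, kept reads of mapping quality over 10, pooled replicates and called peaks with MACS2 2.1.1.20160309 without a control, at p of 1e-05. Per the file headers, each pool entered the call under 2 entries and its fragment total was exactly 2 times the number kept. The deposited pileup is a signal, the fragments over the summit, not scaled to depth. The deposited fold enrichment is a ratio of pileup to local background. The deposited −log10 p and q values come from MACS2. The deposited summit position is a genomic coordinate in bp, which was entered under the unit score for want of a unit for positions.

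Overlap of at least 1 bp made a peak shared. Gene bodies and starts came from GENCODE M1 on the same build, and sequence from that genome. Motifs were sought within 100 bp of summits with Python 3.11.15, pysam 0.24.0 and pandas 2.3.3, tested on simulated data. Shares have 95% Wilson and differences Newcombe intervals. The members, gene lists and motifs were chosen with earlier results of these data known. Named were the 10 sites of highest pileup, the 10 genes with most sites, up to 4 genes per list by pileup, sites with 2 or more cores and sites beside the thresholds. Not every name given by these rules is printed. Other names were chosen after their values were seen. Sites on chromosome 18, or whose displayed run would touch an untranslated region, were not shown as sequence. Older symbols were matched through RefSeq names of GRCm38.p6.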

Additional observations from a re-analysis of the deposited data

How the results depend on the processing

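The pileup rule moved most the number of sites, the count of listed genes with one, the rank of the core and the CTCF share and difference. The other results moved further under another alternative. With a pileup of at least 83, the upper quartile of the WT list, 86 sites were left in place of 576, and 5 listed genes held one in place of 29. The Tcf/Lef share was then 15.1% and its difference from shared sites 10.3 points, the intron 1 share 26.7%, the CTCF share 5.81% and the rank of the core 6. The CTCF difference turned to -4.40 points (-8.18 to 2.87), the only change of direction among 167 values over 12 alternatives, and the cause was not tested. With fold enrichment at or above its median in place of pileup, the intron 1 share was 24.7%, the share of host genes with both promoter peaks 58.4% and the CTCF share 20.9%. A window of 50 bp on each side, which holds fewer bases, gave a Tcf/Lef share of 6.25% and a difference of 4.17 points, an Ets share of 6.42%, a Runx share of 7.29%, a median GC of 52.5% and rank 2 for the core. The rank was also 2 under the study's criteria for fold, p and q and at q below 1e-10. With the 20000 peaks of highest −log10 p in each list, 4 T cell markers had a promoter peak in both lists, in place of 8. Among sites over 120 bp wide, an alternative chosen after seeing the data, the Tcf/Lef share was 15.3%, its difference 10.5 points and the CTCF share 12.5%. Leaving out WT peaks of fold enrichment under 4, also chosen after seeing the data, gave 544 sites. The other 144 values stayed within the counting intervals of the reported values, within 1.5 times for counts or at the same rank, but some lost their call. The CTCF difference was 2.11 points (-0.619 to 5.18) at q below 1e-10, 2.01 points (-0.763 to 5.12) with the top 20000 peaks and 2.96 points (-0.183 to 6.75) among sites over 120 bp wide. At the upper pileup quartile the differences of Ets, -6.45 points (-12.1 to 2.27), and Runx, -6.53 points (-12.2 to 2.19), also had intervals that include 0. Between 471 and 670 sites were found under the alternatives set before the deposited lists were opened, although with earlier results of these data known, other than the pileup quartile and the fold rule, which gave 809. The pileup threshold was kept at 54 where lists were filtered.

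No paired analysis was possible because the deposited lists hold 1 pool per genotype, and leaving out replicates was not possible for the same reason. The WT pool had more fragments, and values at places without a dKO peak were not analysed here.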

Other observations

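The X chromosome, which the choice of sites left out, held 41 strong genic distal WT peaks, of which 10, or 24.4%, overlapped no dKO peak, beside 16% of such peaks on the autosomes and 30.1% of all WT peaks. Their pileups ran from 54 to 74, with a median of 59.5, and 1 had a Tcf/Lef core and 2 a CTCF motif. The highest was in intron 2 of Elf4, an Ets factor that restrains the proliferation of naïve CD8+ T cells, and 4 lay in intron 4 of the transcript 6720401G13Rik.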
